A study of Mus musculus with 36 samples.

Results

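Broad H3K27me3 domains in control neurospheres were examined. H3K27me3 is the trimethyl mark that Polycomb repressive complex 2 (PRC2) places on histone H3, and a domain was a stretch of at least 30 kb joined by islands of this mark, which are runs of enriched windows, from both control libraries. Domains were chosen by merging the overlapping or touching islands of the 2 control neurosphere H3K27me3 libraries on the 19 autosomes. A merged region was kept when it was at least 30 kb long, had an island in both libraries and lay past the first 3.2 Mb of its chromosome. Of 25928 merged regions with an island in both libraries, 1283 met this rule. The other 24645 are called narrower regions below.

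Chromatin immunoprecipitation was followed by sequencing (ChIP-seq) for 3 histone marks in mouse hippocampus at postnatal day 0 (P0) and in neurospheres. Neurospheres are free-floating cultures of neural progenitors, here grown from P0 hippocampus with FGF2 and EGF. Control mice (Ctrl) were Kdm2bfl/+ or Kdm2bfl/fl, and the labels do not say which of these a library holds. Conditional knockout mice (cKO) were Kdm2bEmx1-delta-CxxC, in which Emx1-Cre removes the exon for the CxxC zinc finger of KDM2B in the dorsal telencephalic lineage. Each source, mark and genotype had 2 libraries, 24 in all, and nothing says whether the 2 came from separate animals or cultures, so p-values measure only the spread between these libraries. Hippocampal tissue is a mixture of progenitors, neurons and other cells, and in it fewer marked cells and less mark per cell cannot be told apart. The island files give no value for the deleted exon, so the genotype was not checked in them. Expression was not analysed here, so the cell type was not checked. None of 10 neural progenitor genes, among them Sox2, Nes, Vim and Lhx2, had its start in a domain, which says little about the cells, since 5.21% of all genes started in one. Pax6 had its start in a narrower region of 8 kb.

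PRC2 writes H3K27me3, and Polycomb repressive complex 1 (PRC1) ubiquitylates histone H2A to give H2AK119ub1. The marks often lie together over silent genes for developmental transcription factors, and each complex can bind the mark of the other. KDM2B belongs to a variant PRC1 and binds unmethylated CpG through its CxxC zinc finger, and its long isoform removes methyl groups from H3K36me2. H3K36me2 is spread over active and intergenic chromatin and hinders PRC2.

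The sequences below are the 250 bases just upstream of a RefSeq transcript start, 5′ to 3′ on the strand of the gene, for 5 genes in named domains. They are shown because CpG is what the CxxC finger binds, and each CG is in capitals. Coordinates are those of GRCm38.p6, the same build as mm10. Hoxd13 and Hoxa2 pattern the body axis, Pax2 patterns kidney and the midbrain-hindbrain boundary, Casz1 is a zinc finger regulator of heart and retina, and Coro2b is an actin-binding coronin. The domains of the first 4 genes were also marked in hippocampus, whereas that of Coro2b had no hippocampal H3K27me3 island.
Hoxd13, chr2:74667975-74668224, plus strand: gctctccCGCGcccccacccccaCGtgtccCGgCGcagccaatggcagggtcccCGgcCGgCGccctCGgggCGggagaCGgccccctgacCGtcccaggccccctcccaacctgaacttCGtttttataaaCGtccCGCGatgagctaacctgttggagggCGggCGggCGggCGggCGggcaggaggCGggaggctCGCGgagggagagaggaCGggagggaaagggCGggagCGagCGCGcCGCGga
Hoxa2, chr6:52164832-52165081, minus strand: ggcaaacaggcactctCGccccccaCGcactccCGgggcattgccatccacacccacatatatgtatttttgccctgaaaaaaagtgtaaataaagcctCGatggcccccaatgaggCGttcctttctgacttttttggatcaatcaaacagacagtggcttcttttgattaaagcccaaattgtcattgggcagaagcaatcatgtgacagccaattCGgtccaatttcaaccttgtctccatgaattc
Pax2, chr19:44755502-44755751, plus strand: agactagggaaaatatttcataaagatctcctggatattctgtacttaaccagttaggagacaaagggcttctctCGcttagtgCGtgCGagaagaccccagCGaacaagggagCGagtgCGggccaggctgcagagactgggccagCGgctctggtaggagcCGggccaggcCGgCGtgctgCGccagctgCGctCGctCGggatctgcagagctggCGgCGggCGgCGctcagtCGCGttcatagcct
Casz1, chr4:148804142-148804391, plus strand: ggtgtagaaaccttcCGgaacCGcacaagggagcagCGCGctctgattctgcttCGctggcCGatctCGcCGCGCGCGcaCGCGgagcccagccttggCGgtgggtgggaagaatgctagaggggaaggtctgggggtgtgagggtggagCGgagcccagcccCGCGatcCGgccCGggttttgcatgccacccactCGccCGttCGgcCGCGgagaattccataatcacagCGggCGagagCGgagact
Coro2b, chr9:62537045-62537294, minus strand: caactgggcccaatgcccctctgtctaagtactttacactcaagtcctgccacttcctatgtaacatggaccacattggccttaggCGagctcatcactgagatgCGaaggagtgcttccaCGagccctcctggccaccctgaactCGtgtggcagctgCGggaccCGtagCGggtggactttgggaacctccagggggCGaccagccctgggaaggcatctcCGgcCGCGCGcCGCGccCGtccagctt

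Hoxd13 had 31 CG in these 250 bases, Casz1 27, Pax2 20, Coro2b 15 and Hoxa2 6. Across 31396 autosomal RefSeq promoters the median was 6 CG, and 5.36% held 31 or more. Promoters of genes that start in domains had a median of 10 CG (945 promoters), and 52.6% of them held 10 or more, against 38.3% of all. RefSeq promoters were found for 761 of 1083 gene symbols, so the 945 promoters leave out some genes and count others more than once. A second measure, explained below, went the other way. CpG-rich starts made up 40.6% of the starts in domains and 45.7% of all starts.

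The domains summed to 73.0 Mb, 3.05% of the assembled autosomes and 30.8% of the length of all merged regions. Their median length was 44.2 kb, with quartiles of 35.9 and 61.8 kb, whereas narrower regions had a median of 4.6 kb. The longest domain was 373.8 kb, and 114 domains reached 100 kb. Islands of the 2 Ctrl libraries covered 95.7% and 93.7% of domain bases, and 180 domains were a single island in each library. The smaller of both Ctrl covered shares was under 50% in only 11 domains. These Ctrl neurosphere H3K27me3 values chose the domains and are given as a description. At the threshold, the domains of Tbx2 and Susd3 and a stretch inside Sdk2 were 30 kb long, and the regions of Prss56, Chrnd and Chrng, of Fcrlb, and a stretch of chromosome 12 with no start were 29.8 kb.

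Domains were unevenly spread over the genome. Chromosome 11 had 107 domains per 100 Mb, chromosome 4 had 97.4 and chromosome 9 had 87.6. Chromosome 3 had 16.7, chromosome 18 had 19.5 and chromosome 14 had 20.6. Domains were richer in G and C than the autosomes. The median GC content was 49.0% in domains, 46.0% in narrower regions and 41.9% over the autosomes. The observed to expected ratio of CpG had a median of 0.223 in domains, 0.198 in narrower regions and 0.193 over the autosomes.

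Protein-coding starts lay in 696 of the 1283 domains (54.2%). In 464 of these there was 1 start, in 148 there were 2, and in 84 there were 3 or more. In all 1084 genes started in domains, 5.21% of the 20807 autosomal protein-coding genes, and 2777 started in narrower regions. Of the 587 domains with no start, 283 overlapped the body of a protein-coding gene and 304 touched none. A start was called CpG-rich where the 500 bases on each side of it together exceeded 50% in GC and 0.6 in the CpG ratio just given. Such starts made up 40.6% of the starts in domains, 30.2% of those in narrower regions and 45.7% of all starts. Domains with a start had a median length of 47.4 kb, against 40.4 kb without one.

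Genes of developmental transcription factors were frequent in the domains. Of 146 genes on 5 lists of homeobox genes, 105 (71.9%) started in a domain, 30 in a narrower region and 11 in neither, beside 5.21% of all genes in domains. Of 39 Hox genes 38 lay in 4 domains, and the other was in a narrower region. All 5 Gata genes on autosomes were in domains, each in its own: Gata4, which acts in heart and gut, in 333 kb, Gata5 in 171.6 kb, Gata2, which acts in blood, in 104.4 kb, Gata3 in 48.2 kb and Gata6 in 37.4 kb. Domains held 4 of 6 Irx genes, 9 of 15 genes on a list of Pax and sine oculis homeobox genes, 20 of 32 Dlx, Lhx, Nkx and Isl genes, 34 of 54 other homeobox genes, 18 of 41 forkhead genes, 6 of 16 T-box genes and 14 of 39 lineage bHLH genes. The Sox list, whose members Sox2, Sox1 and Sox9 act in neural progenitors, had 1 of 18 genes in a domain, Sox14. That share, 5.56%, was near the 5.21% of all genes. A further 4 Sox genes (22.2%) started in narrower regions, beside 13.3% of all genes. The homeobox genes outside both kinds of region included Lhx2 and Emx2, which act in the dorsal telencephalon. Emx1, whose promoter drives the Cre, started in a domain of 45 kb, and so did Otx2, a forebrain and midbrain gene, in 45.8 kb.

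Among signalling genes the share in domains ran from 10% for frizzled receptors to 57.9% for Wnt ligands. Domains held 11 of 19 Wnt ligand genes, 4 of 20 Fgf ligand genes, 3 of 20 Bmp and Gdf ligand genes, 2 of 10 hedgehog pathway genes and 1 of 10 frizzled receptor genes. The Wnt ligands were in 8 domains, which held Wnt6 with Wnt10a, Wnt3a with Wnt9a, Wnt1 with Wnt10b, and Wnt3, Wnt4, Wnt8b, Wnt9b and Wnt11 singly. Keratins had 16 of 53 genes in 7 domains, and none of the 53 had a CpG-rich start. Potassium channels had 14 of 79 and glutamate and GABA receptors 7 of 43, among them Grin2b, an NMDA receptor subunit, in 36.6 kb. Of 27 Polycomb and KDM2B complex genes, Cbx2, a PRC1 subunit, was in a domain of 95 kb, and Rybp, Cbx7 and Pcgf1 were in narrower regions of 29.4, 26.4 and 23.2 kb. Kdm2b itself, the PRC2 genes Ezh2, Eed and Suz12, and the PRC1 gene Rnf2 started in neither kind of region. Of 7 CDK inhibitor genes only the imprinted Cdkn1c was in a domain. Several multigene families had few or no genes in domains: 4 of 1086 olfactory receptors, 3 of 358 Zfp genes, 1 of 76 ribosomal protein genes, 0 of 325 vomeronasal receptors and 0 of 56 clustered protocadherins.

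**Figure D1:**
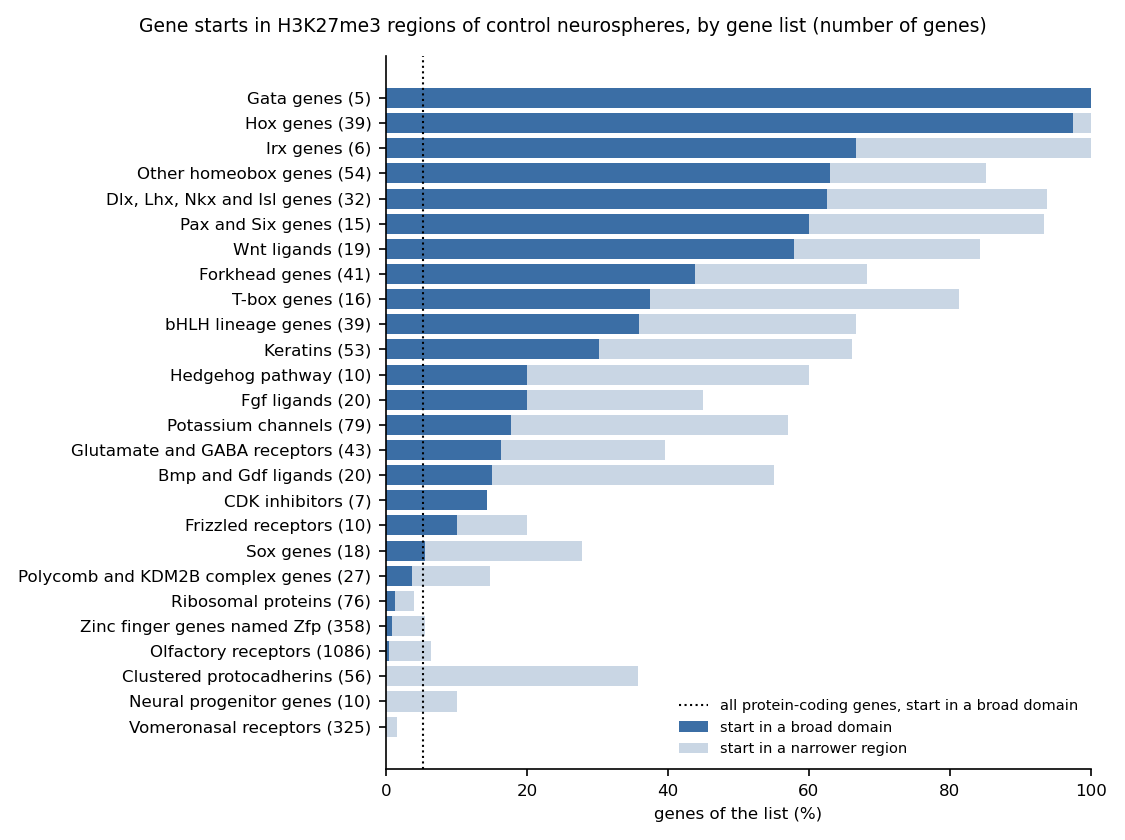
Share of each gene list whose protein-coding start lay in a broad domain (dark bars) or in a narrower region (light bars), in percent of the autosomal genes of the list, with the number of genes in brackets and the share of all genes in broad domains as a dotted line at 5.21%. Gata and Hox genes reached 100% and 97.4%, and the neural progenitor, vomeronasal and clustered protocadherin lists had no gene in a domain.

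The 10 longest domains measured 262.2 to 373.8 kb. The longest, chr4:154277601-154651400, held Prdm16, a zinc finger regulator of brown fat and neural stem cells, with Arhgef16. The next, chr6:99859001-100228400, was 369.4 kb long and held no protein-coding start or body, as was also true of stretches of 240.8 kb on chromosome 2 and 208.6 kb on chromosome 11. Foxc2 and Foxl1, forkhead genes of mesoderm and gut, shared 354.2 kb, Gata4 shared 333 kb with Neil2, Blk, Fam167a and Tdh, and C1qtnf1 and Engase shared 330.4 kb. The Hoxb and Hoxc clusters followed at 301 and 288.6 kb, then Runx3, a gene of sensory neurons and T cells, at 267.6 kb, Pax2 at 265.4 kb, and Parvg with Shisal1 and Rtl6 at 262.2 kb. In these 10 domains neurosphere H3K27me3 covered 68.2% to 100% in the 4 libraries. Hippocampal H3K27me3 spanned 0% to 96.8% over these domains and libraries.

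The H2AK119ub1 covered share of the domains varied widely between libraries. The neurosphere covered share of domain bases was 83.4% and 46.7% for Ctrl, and for cKO it was 55.1% and 81.4%. The hippocampal values were 11.5% and 41.3% for Ctrl, with 8.92% and 56.2% for cKO. Each group held a high and a low library, and Ctrl and cKO overlapped in both sources. The sources overlapped as well, since hippocampal cKO replicate 2 lay above 2 of the 4 neurosphere libraries, and the covered share was not tested between sources. The low and high libraries also differed in islands overall: H2AK119ub1 islands covered 1.56% to 10.3% of the autosomes in the hippocampal libraries and 4.86% to 13.3% in the neurosphere libraries. Islands of the 24 libraries held 986907 to 21946455 counts in all, which is not their sequencing depth, since reads outside islands are not in the files.

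Domains carried more H2AK119ub1 than their surroundings in every library. The covered share was higher in domains than in narrower regions by 24.7 percentage points on average, from 4.86 to 40.3 over 8 of 8 libraries (two-sided exact permutation test by sign flips, p = 0.00781, the smallest possible, adjusted p = 0.0234 over 3 tests). Against narrower regions of 10 to 30 kb the covered share was higher by 17.0 points, from 3.82 to 24.9 over 8 of 8 libraries. It was higher than in the 30 kb flanks by 22.7 points, from 5.31 to 31.8 over 8 of 8 libraries (exact permutation p = 0.00781, adjusted p = 0.0234 over 3 tests). The paper's methods describe dividing a lysate into input and a part for each mark. Neurosphere Ctrl H2AK119ub1 libraries may therefore share material and input with those that chose the domains, which these tests do not allow for. The share covered in domains relative to the autosomes was 5.44 to 6.28 times in hippocampus and 6.26 to 9.62 times in neurospheres. The mean log2 difference of this ratio between sources was 0.32, which was not past the threshold (exact permutation within genotype, p = 0.111, adjusted p = 0.222 over 2 tests, smallest possible p = 0.0556), and it ran from 0.16 without neurosphere Ctrl replicate 2 to 0.47 without neurosphere Ctrl replicate 1.

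**Figure D2:**
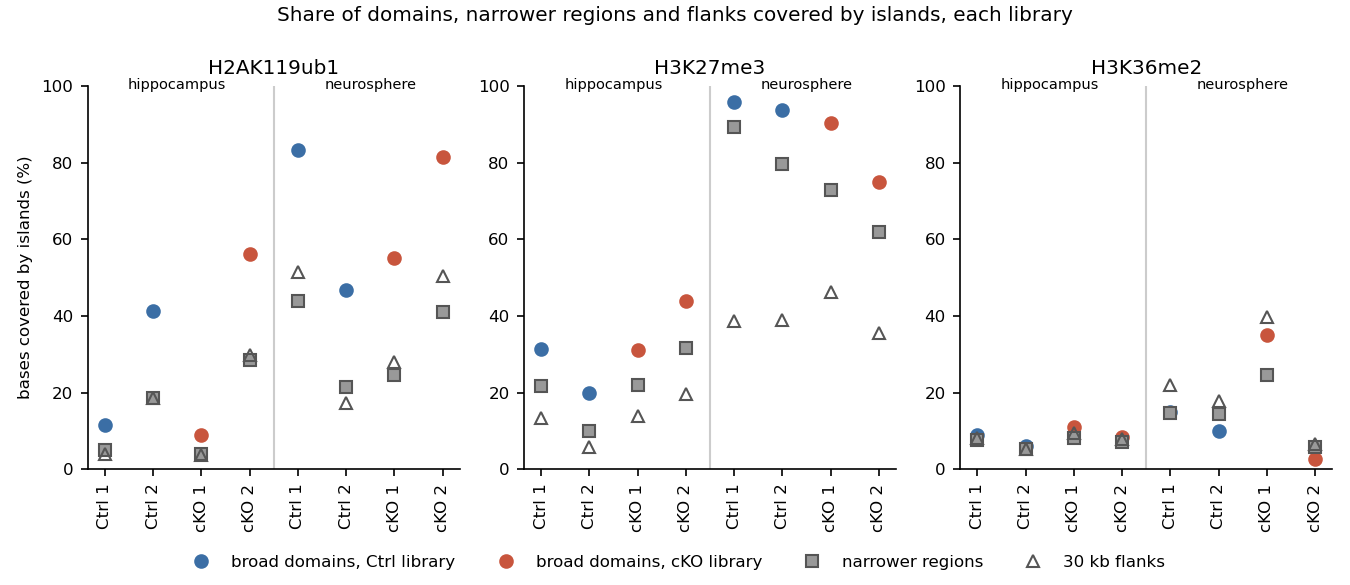
Percent of bases covered by islands in each of the 24 libraries, for broad domains (circles, blue Ctrl and red cKO), narrower regions (squares) and 30 kb flanks (triangles), with the 3 marks in separate panels. For H2AK119ub1 all 8 circles lie above their squares and triangles, and for H3K36me2 the symbols lie close together except in neurospheres.

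H2AK119ub1 changed within a few kb of the domain edge. In the first kb inside the edge the neurosphere libraries were covered at 63.9%, 26.1%, 31.4% and 58.3% (Ctrl 1, Ctrl 2, cKO 1 and cKO 2). In the bin from 14 to 15 kb inside they reached 83.1%, 45.0%, 55.2% and 81.1% in the same order. Hippocampal H3K27me3 rose from 19.0%, 8.24%, 19.1% and 26.1% in the first kb to 32.0%, 20.4%, 32.4% and 45.0% at 14 to 15 kb. H3K36me2 in neurospheres stood at 23.4%, 19.4%, 41.8% and 7.22% in the bin from 29 to 30 kb outside, and at 15.3%, 10.1%, 34.7% and 2.69% at 14 to 15 kb inside, lower in each library. Between these bins it did not fall steadily. From 1 to 2 kb outside it was 17.5%, 13.5%, 31.9% and 5.21%, in the first kb inside 18.4%, 14.3%, 34.9% and 4.33%, and cKO 1 reached 38.6% at 5 to 6 kb inside. Each edge is by construction the end of a Ctrl neurosphere H3K27me3 island. A dip in the kb just outside the edge was also seen in libraries that drew no edge, though not in all of them. From the bin 4 to 5 kb outside to that kb, neurosphere H2AK119ub1 went from 57.6% to 37.7% in Ctrl 1 and from 54.7% to 39.9% in cKO 2, and hippocampal H3K27me3 from 23.2% to 17.8% in cKO 2. Over the same step hippocampal H3K27me3 rose from 14.7% to 15.9% in Ctrl 1 and went from 6.12% to 5.93% in Ctrl 2. Neurosphere H3K27me3 in cKO 2 went from 41.0% to 39.6%.

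**Figure D3:**
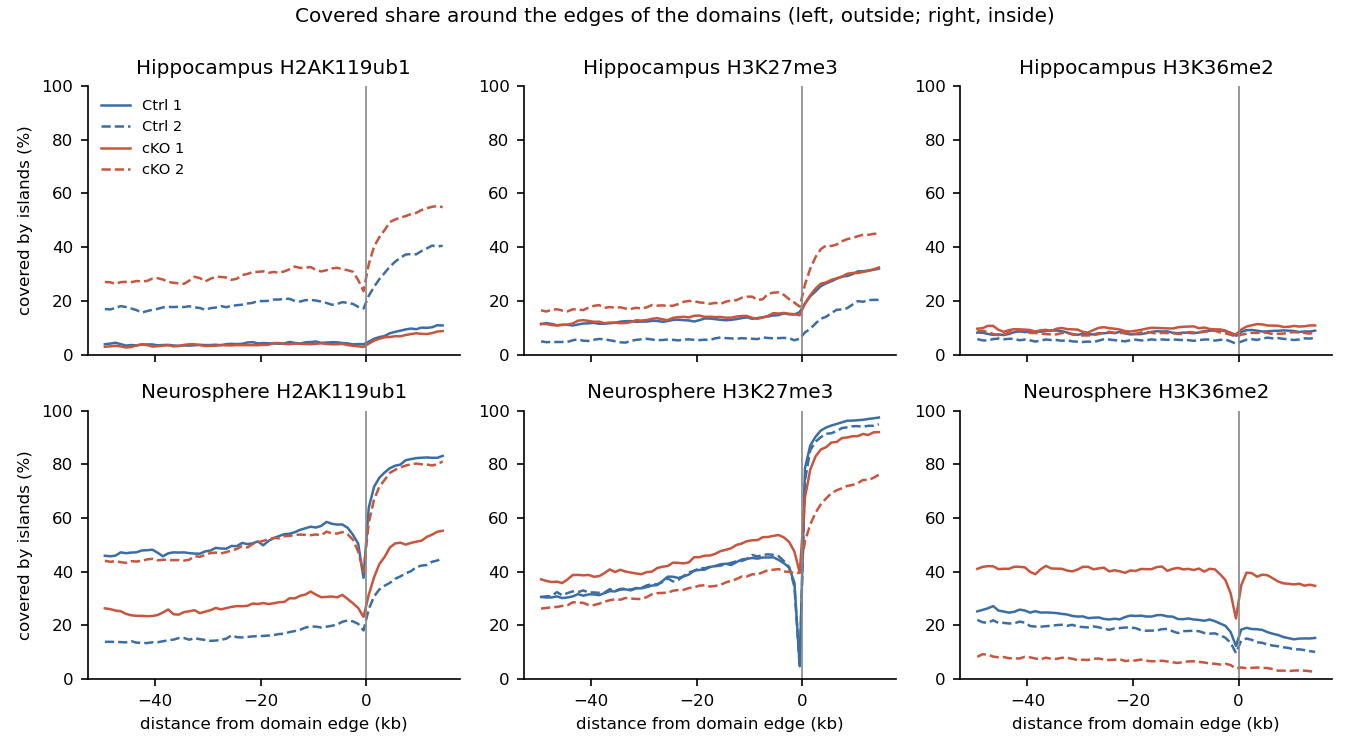
Percent of bases covered by islands in 1 kb bins from 50 kb outside to 15 kb inside the edges of the domains, both edges together, for each library (blue Ctrl, red cKO, solid replicate 1, dashed replicate 2). H2AK119ub1 and H3K27me3 climb inside the edge in both sources, hippocampal H3K36me2 changes little, and neurosphere H3K36me2 is lower at 14 to 15 kb inside than at 29 to 30 kb outside in all 4 libraries, with a dip in the kb just outside the edge. The Ctrl neurosphere H3K27me3 libraries drew the edges, so their climb is by construction.

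Islands of both Polycomb marks covered a larger share of longer domains. The covered share was lower near the edges, as given above, and edges make up less of a long domain. The part of this in the rise with length was not tested. From the 498 domains of 30 to 40 kb to the 114 domains of at least 100 kb, the H2AK119ub1 covered share went from 76.7% to 91.6% and from 35.4% to 59.9% in the Ctrl neurosphere pair, and from 46.5% to 66.1% and from 73.9% to 90.1% in the cKO pair. In hippocampus the same step was 8.52% to 15.2%, 33.8% to 52.0%, 6.90% to 11.9% and 48.8% to 68.5%. Hippocampal H3K27me3 went from 26.4% to 35.0% and from 15.2% to 24.2% in Ctrl and from 26.6% to 34.8% and from 39.5% to 48.2% in cKO. Neurosphere H3K36me2 was lower in the longest domains in all 4 libraries, from 17.5% to 12.4% and from 14.03% to 6.40% in Ctrl and from 36.6% to 33.2% and from 4.17% to 1.58% in cKO. Hippocampal H3K36me2 was slightly higher in the longest domains than in the shortest, at 9.37% to 10.01% and 6.49% to 6.82% in the Ctrl pair and 11.9% to 12.1% and 9.11% to 9.82% in the cKO pair, with lower values between.

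**Figure D4:**
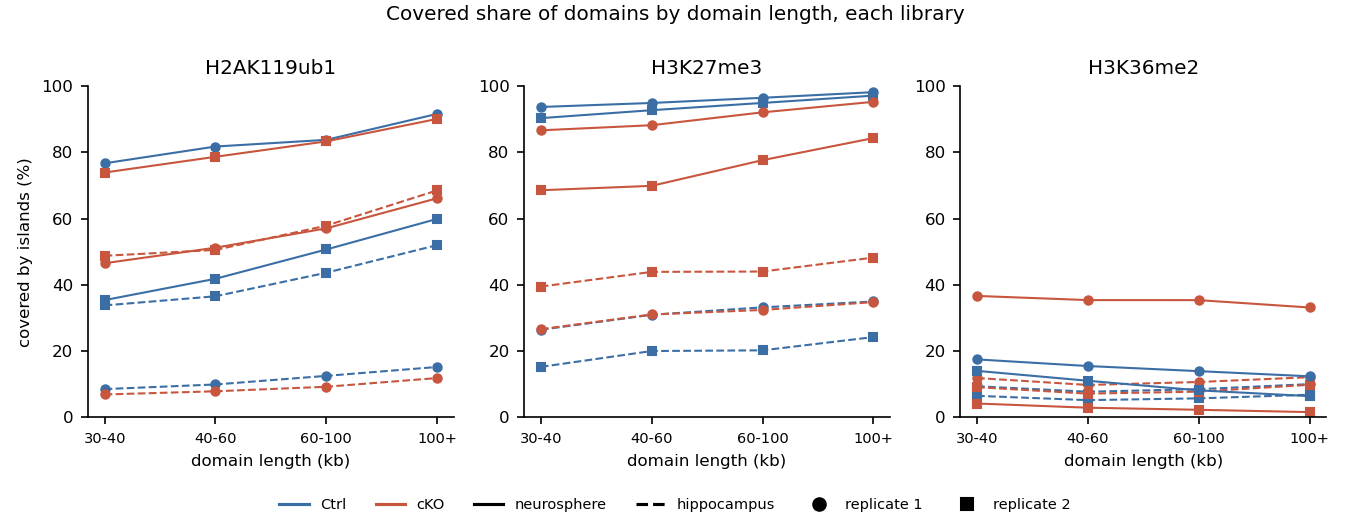
Percent of domain bases covered by islands against domain length in 4 bins (30 to 40, 40 to 60, 60 to 100 and at least 100 kb), with 1 line for each library. H2AK119ub1 and H3K27me3 lines rise from the shortest to the longest bin in all libraries, the neurosphere H3K36me2 lines end lower than they begin, and the hippocampal H3K36me2 lines end slightly higher. The Ctrl neurosphere H3K27me3 libraries set the domains and their lengths, so the rise of their lines is only a description.

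In hippocampus, H3K27me3 islands covered only part of the domain bases. Islands of this mark covered 2.28% to 6.67% of the autosomes in hippocampal libraries and 9.98% to 12.7% in neurosphere libraries. A domain without a hippocampal island is not shown to lack the mark. Relative to the autosomes, domains were covered 6.10 to 8.75 times in hippocampus, and 7.13 and 6.87 times in cKO neurospheres. Hippocampal H3K27me3 covered 31.4% and 20.0% of domain bases in Ctrl and 31.2% and 43.9% in cKO, and the groups overlapped. It was higher in domains than in narrower regions by 10.3 points, in 4 of 4 libraries (exact permutation by sign flips, p = 0.125, the smallest that 4 libraries allow, adjusted p = 0.188). Against narrower regions of 10 to 30 kb hippocampal H3K27me3 was higher by 6.70 points, in 4 of 4 libraries. It was higher than in flanks by 18.5 points, again in 4 of 4 libraries (exact permutation, p = 0.125, adjusted p = 0.133). Under the same rule the 2 hippocampal Ctrl libraries gave 340 H3K27me3 domains of their own, and 12.8% of the neurosphere domains overlapped these, which is 47.1% of the hippocampal ones.

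In 148 domains hippocampal H3K27me3 covered at least 50% in all 4 libraries, and in 126 domains none of the 4 libraries had an island. These are called the shared and the unmarked set, where unmarked means only that no island was called. Both sets were cut by measured values and are described without a test. A protein-coding start was in 75% of the shared set and 21.4% of the unmarked set, and a CpG-rich start in 60.1% and 12.7%. The median CpG ratio was 0.282 in the shared set and 0.205 in the unmarked set, while median GC was 48.1% and 48.7%. Neurosphere H2AK119ub1 covered 83.8%, 73.9%, 65.9% and 81.0% of the shared set and 83.4%, 50.6%, 58.9% and 82.0% of the unmarked set (Ctrl 1, Ctrl 2, cKO 1 and cKO 2). Hippocampal H3K36me2 covered 0.484%, 0.480%, 1.26% and 0.627% of the shared set and 17.9%, 11.8%, 19.8% and 18.8% of the unmarked set. In neurospheres H3K36me2 covered 5.23%, 3.86%, 17.6% and 1.44% of the shared set and 32.0%, 23.1%, 52.1% and 8.17% of the unmarked set, so the unmarked set was higher in all 8 libraries.

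The shared set was led by the Hoxb, Hoxc, Pax2, Casz1 and Lmx1b domains, and all 4 Hox domains were close to full in both sources. The Hoxd domain, chr2:74653801-74742200, held 8 Hox genes with Evx2 in 88.4 kb and was covered by H3K27me3 at 100% in all 8 libraries. The Hoxa domain, chr6:52146201-52337400, held 11 Hox genes in 191.2 kb, the Hoxb domain, chr11:96076401-96377400, held 10, and the Hoxc domain, chr15:102861001-103149600, held 9. Over the 4 domains neurosphere H3K27me3 covered 97.8% to 100%, hippocampal H3K27me3 81.1% to 100%, and neurosphere H2AK119ub1 69.5% to 99.1%. H3K36me2 covered at most 2.09% of a Hox domain in hippocampus and at most 4.57% in neurospheres. Pax2 had hippocampal H3K27me3 over 90.4%, 65.6%, 90.5% and 91.6%, and Lmx1b, a gene of limb and hindbrain, over 77.7%, 51.6%, 85.8% and 86.4%. The Hoxd13 and Casz1 promoters printed above, with 31 and 27 CG, belong to these sets, as does the Hoxa2 promoter with 6.

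The unmarked set was led by Mycn, Coro2b, Prmt8, Mpped1 and Kank2. Mycn, a proto-oncogene of proliferating progenitors, lay in 89.6 kb with neurosphere H3K27me3 over 98.0%, 94.2%, 83.9% and 79.2%, and with hippocampal H3K36me2 over 29.0%, 23.7%, 28.1% and 42.4%. Coro2b, in 80.6 kb, had neurosphere H3K27me3 over 95.5% and 96.3% in Ctrl and over 22.8% and 0% in cKO, while its H2AK119ub1 was 100%, 98.3%, 78.9% and 96.5%. The same domain had neurosphere H3K36me2 over 96.0%, 73.7%, 94.8% and 10.2%, so islands of both methyl marks covered most of it in both Ctrl libraries. Prmt8, a brain arginine methyltransferase, had neurosphere H3K27me3 over 98.8%, 98.5%, 100% and 100%. Kank2, in 58.2 kb, had 78.4%, 81.8%, 51.9% and 19.2%, with H2AK119ub1 over 98.6%, 68.0%, 59.5% and 100%. Mpped1, a phosphoesterase gene, had neurosphere H2AK119ub1 over 47.9%, 0%, 30.1% and 74.1%, and no H3K36me2 island in hippocampus.

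**Figure D5:**
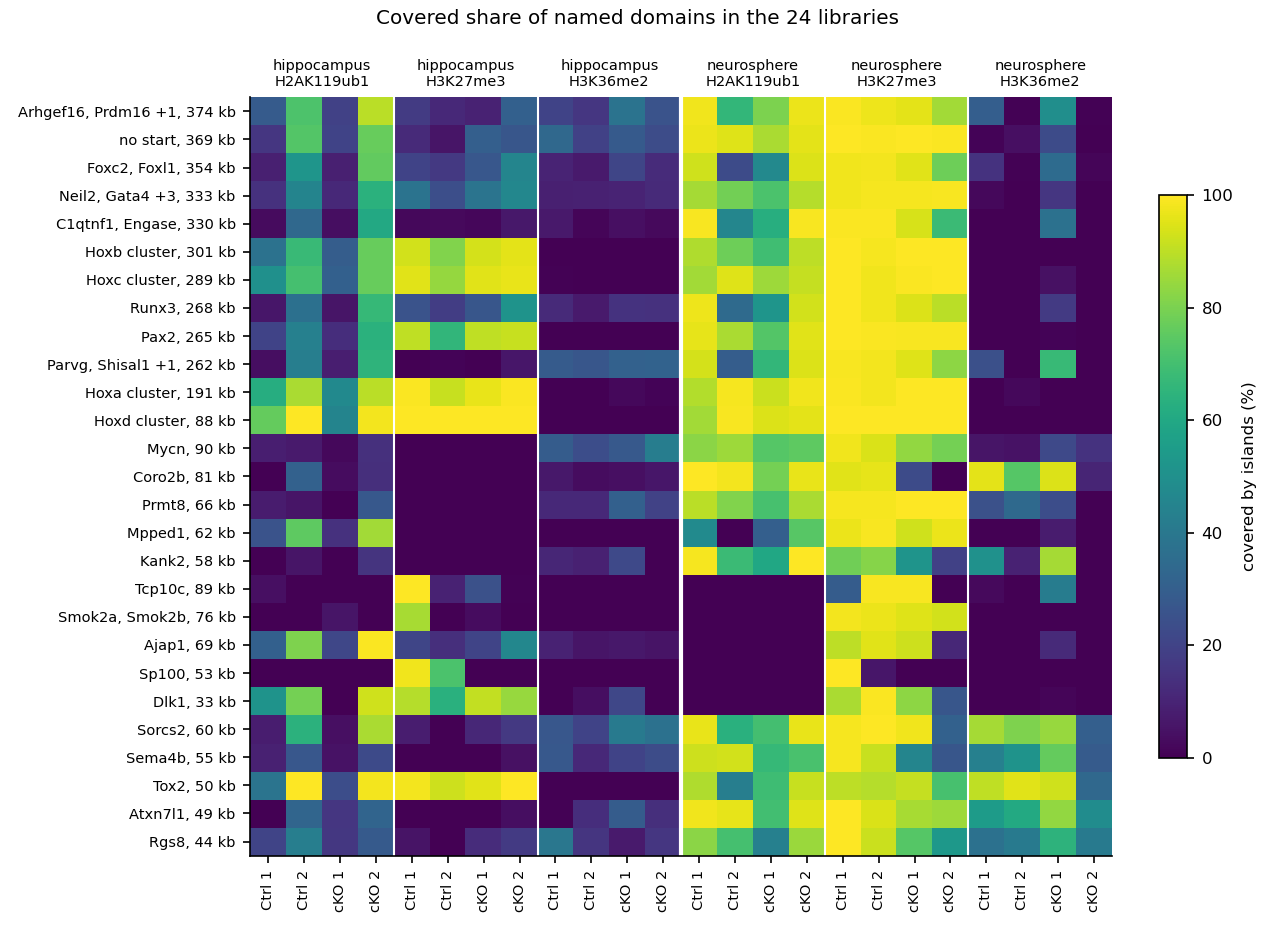
Covered share of 27 named domains (rows, with length in kb) by islands of each of the 24 libraries (columns), on a colour scale from 0 to 100%. The Hox and Pax2 rows are bright for H3K27me3 in both sources, the Mycn to Kank2 rows are dark for hippocampal H3K27me3, and the Tcp10c to Dlk1 rows are dark for neurosphere H2AK119ub1.

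H2AK119ub1 reached at least 90% in all 4 neurosphere libraries in 12 domains, of which the longest with a start held Edn2 and Foxo6 (208.6 kb) and Pabpn1l, Cbfa2t3 and Acsf3 (186.8 kb). The Hand2, En1 and Arid3a domains followed. En1, a midbrain-hindbrain gene, and Hand2, a gene of heart and sympathetic neurons, had H2AK119ub1 over 96.2%, 90.2%, 92.3% and 91.1%, and over 91.8%, 98.8%, 90.1% and 95.5%. In contrast, 9 domains had no neurosphere H2AK119ub1 island in any library. They included Dlk1, an imprinted gene, with neurosphere H3K27me3 over 87.2%, 99.4%, 82.9% and 26.8%, and Ajap1, with 90.2%, 95.7%, 92.5% and 11.2%. In hippocampus the Ajap1 domain did have H2AK119ub1, over 30.8%, 80.7%, 21.3% and 99.4%. Sp100, Tcp10c, Smok2a and Smok2b were also among the 9, and their values are uncertain because these genes have near-identical copies whose reads can be misplaced. Sp100 had neurosphere H3K27me3 over 100%, 6.02%, 0% and 0%.

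H3K36me2 was not depleted from domains as a whole in hippocampus. It covered 8.85% and 6.02% of domain bases in Ctrl and 11.0% and 8.40% in cKO, 1.26 to 1.69 times its share of the autosomes. In neurospheres it covered 14.8% and 9.94% in Ctrl and 35.1% and 2.73% in cKO, from 0.188 to 1.70 times the autosomal share, and the cKO libraries were the highest and the lowest of the 4. Domains differed from narrower regions by 1.19 points (exact permutation, p = 0.555, adjusted p = 0.555), and the difference was -0.15 without neurosphere cKO replicate 1. They differed from flanks by -2.42 points (exact permutation, p = 0.133, adjusted p = 0.133), lower in all 4 neurosphere libraries and higher in all 4 hippocampal ones. The log2 difference of the enrichment between sources was -1.10 (exact permutation, p = 0.222, adjusted p = 0.222), from -1.90 to -0.31 when 1 library was left out. In 125 domains no H3K36me2 island was present in any of the 8 libraries, and hippocampal H3K27me3 covered 64.4%, 41.7%, 61.6% and 71.4% of these.

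In 48 domains H3K36me2 covered at least 25% in all 4 neurosphere libraries. Only 9 of these (18.8%) had a protein-coding start. Their H3K27me3 in neurospheres was 96.2% and 90.1% for Ctrl, against 75.02% and 47.9% for cKO, their H3K36me2 was 71.2%, 73.9%, 81.1% and 41.9%, and their H2AK119ub1 90.02%, 61.7%, 59.2% and 84.4%. Sorcs2, a sortilin receptor gene in 60.2 kb, had H3K36me2 over 86.4%, 80.7%, 84.7% and 30.2%, and H3K27me3 over 98.7%, 99.7%, 98.0% and 30.9%. Tox2, in 50.2 kb, had H3K36me2 over 90.4%, 95.6%, 92.8% and 33.9% beside H3K27me3 over 90.04%, 88.8%, 91.2% and 70.9%. In these bulk libraries islands of both marks in the same place do not show that the marks were on the same molecules. A stretch of 240.8 kb with no start, chr2:166253601-166494400, had the same overlap in Ctrl, with H3K36me2 over 90.03%, 86.9%, 90.95% and 8.22%. Sema4b, Atxn7l1 and Rgs8 were the other named domains of this kind, and Atxn7l1 had H3K36me2 over 54.7%, 60.8%, 83.7% and 48.6% beside H3K27me3 over 100%, 94.3%, 86.9% and 85.3%.

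In cKO neurospheres H3K27me3 covered 90.4% and 74.8% of the domains. Since the domains were chosen for coverage in Ctrl, lower values in cKO follow in part from the choice, and no test was made. The same rule applied to the 2 cKO libraries gave 1702 domains of 102.9 Mb, and in these Ctrl covered 83.2% and 79.2% and cKO 90.1% and 90.8%. Of the 1283 Ctrl domains 73.0% overlapped a cKO domain, and of the 1702 cKO domains 51.5% overlapped a Ctrl one. Both cKO libraries covered at least 90% in 441 Ctrl domains and under 50% in 20, and Sp100 was the only domain with no island in either. In the 20 domains neurosphere H3K36me2 covered 41.4%, 30.1%, 74.4% and 10.4%. En2, a midbrain-hindbrain gene in 117.2 kb, had H3K27me3 over 100%, 98.3%, 79.2% and 26.4%, and Emx1 over 97.8%, 75.1%, 69.3% and 48.4%.

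The comparison of cKO with Ctrl asked whether removing the CxxC finger changed the other marks inside the domains. The covered share differed by 6.16 points for hippocampal H2AK119ub1, 11.9 for hippocampal H3K27me3, 2.29 for hippocampal H3K36me2, 3.15 for neurosphere H2AK119ub1 and 6.54 for neurosphere H3K36me2, each as cKO minus Ctrl. None was past the threshold (two-sided exact permutation tests, p = 0.667 for hippocampal H3K27me3 and H3K36me2 and p = 1 for the others, adjusted p = 1 over 5 tests), and 2 libraries against 2 cannot give a p under 0.333. The SD within a group reached 33.4 points for hippocampal H2AK119ub1 and 25.9 for neurosphere H2AK119ub1, so these differences lay within the spread. Divided by the autosomal share of each library, 4 of the 5 differences changed sign. On that scale hippocampal H2AK119ub1 stood at 6.12 and 6.28 for Ctrl, against 5.72 and 5.44 for cKO, a log2 difference of -0.15 with no overlap of the groups (exact permutation p = 0.333, the smallest possible), and the other 4 contrasts overlapped. As a covered share the sign turned for that of hippocampal H2AK119ub1 without Ctrl replicate 1 (-8.74) or cKO replicate 2 (-17.5), for that of neurosphere H2AK119ub1 without Ctrl replicate 2 (-15.2) or cKO replicate 2 (-9.997), and for that of neurosphere H3K36me2 without cKO replicate 1 (-9.66).

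Counts per kb of island inside domains, divided by counts per kb of all autosomal islands of the same library, gave a relative density. For neurosphere H2AK119ub1 Ctrl libraries stood at 1.21 and 1.17 and cKO libraries at 1.08 and 1.14, a log2 difference of -0.10 with no overlap of the groups (exact permutation p = 0.333, adjusted p = 0.556 over 5 tests). For neurosphere H3K36me2 Ctrl libraries stood at 1.06 and 1.02 and cKO libraries at 0.958 and 0.995, a log2 difference of -0.09, again with no overlap (exact permutation p = 0.333, adjusted p = 0.556). For hippocampal H3K36me2 the cKO libraries were the higher, at 1.022 and 1.018 against 1.014 and 1.011 (log2 difference 0.01, exact permutation p = 0.333, adjusted p = 0.556). For hippocampal H2AK119ub1 and H3K27me3 the groups overlapped, with log2 differences of 0.01 and 0.01 (exact permutation p = 1 for both), and both fell below 0 without Ctrl replicate 1 (-0.02 and -0.01) or cKO replicate 2 (-0.05 and -0.08).

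No single domain passed an FDR of 0.05 in any of the 5 contrasts by the quasi-likelihood test of edgeR, fitted over all merged regions covered in all 4 libraries. The background was 0% of regions called in each. The count of a region sums over the islands called in each library, and bases without an island add nothing although their count is unknown. Fold changes here therefore move with the covered share and do not measure the mark alone. At an unadjusted p of 0.05 the domains past it were 15 of 651 (2.3%) for hippocampal H2AK119ub1, against 1.93% of all regions tested, 12 of 1024 (1.17%) for neurosphere H2AK119ub1, against 1.85%, 21 of 385 (5.45%) for hippocampal H3K36me2, against 4.32%, and 7 of 209 (3.35%) for neurosphere H3K36me2, against 2.89%. For hippocampal H3K27me3 they were 76 of 733 (10.4%), against 4.3%, with 70 higher in cKO (9.55% of domains, against 3.71% of all regions) and 6 lower (0.819%, against 0.582%). The median log2 fold change of cKO to Ctrl in that contrast was 0.13 over the domains and 0.00 over all regions. With 1 library left out these 76 domains became 140 (Ctrl 1), 46 (Ctrl 2), 57 (cKO 1) or 41 (cKO 2) of 733, beside 11.3%, 3.71%, 3.33% and 3.71% of all regions. They became 37 of 733 (5.05%, against 4.43% of all regions) when each region took all counts of the islands it touched, and 1 of 148 (0.676%, against 2.21%) among regions covered over at least 50% in all 4 libraries. By the DESeq2 Wald test at FDR 0.05 no domain was called for either H2AK119ub1 contrast, where 0.0667% of regions in hippocampus and 0.113% in neurospheres were called. The same test called 1 of 385 domains for hippocampal H3K36me2 (background 0.166% of regions), 4 of 733 for hippocampal H3K27me3 (0.139%) and 5 of 209 for neurosphere H3K36me2 (1.47%). The edgeR count for neurosphere H2AK119ub1 rested on Ctrl replicate 1, since without that library 209 of 1024 domains (20.4%) passed, 204 higher in cKO and 5 lower, beside 6.81% of all regions. The count for hippocampal H2AK119ub1 was 7 of 651 domains without cKO replicate 2, all lower, beside 0.6% of regions, and that for hippocampal H3K36me2 was 1 of 385 without Ctrl replicate 2, beside 0.083%.

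The domains with the smallest p are named although all failed the adjusted test (edgeR, adjusted p of 0.946 or above). En2 had neurosphere H2AK119ub1 over 94.5% and 88.2% in Ctrl and 49.8% and 68.3% in cKO, a log2 fold change of -0.90 ± 0.19 (SE, n = 2 libraries a group, edgeR adjusted p = 1.000). A domain of 74.8 kb inside Alpk1, chr3:127690401-127765200, next to that of Neurog2, had 66.6% and 85.3% against 25.1% and 24.9%. Inpp5d, a lipid phosphatase gene of blood cells, had 26.3% and 12.3% in Ctrl and 63.7% and 68.4% in cKO, and a domain of beta-defensin genes with Defb21 had 18.6% and 19.4% against 42.5% and 63.9%. In hippocampus H2AK119ub1 of the Neurog2 domain, a proneural gene, covered 17.8% and 39.4% for Ctrl, against 3.77% and 20.6% for cKO, and that of Tgfbr3 26.98% and 74.4% against 2.33% and 46.98%. Sema4c, with 11.1% and 7.37% in Ctrl and 20.0% and 77.9% in cKO, and a domain of 38.2 kb with no start on chromosome 11 went the other way.

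A domain of 144.4 kb that lies wholly in Cux2, a gene of upper-layer neurons, chr5:121873401-122017800, was named in both hippocampal methylation contrasts. Its H3K27me3 covered 19.4% and 12.2% in Ctrl and 6.09% and 16.1% in cKO, with a log2 fold change of the count of -1.09 ± 0.33 (SE, n = 2 a group, edgeR adjusted p = 0.946). Its H3K36me2 covered 2.49% and 1.66% in Ctrl and 8.45% and 10.8% in cKO, with a log2 fold change of 2.13 ± 0.59 (SE, n = 2 a group, edgeR adjusted p = 0.995). For hippocampal H3K27me3 the others were a domain in Cacna2d2, lower in cKO with a log2 fold change of -0.77, one over Cacna1i, higher with 2.46, and one of 66.2 kb with no gene on chromosome 2, higher with 1.91. Cacna2d2 and Cacna1i encode calcium channel subunits. For hippocampal H3K36me2 the others were Prdm16 (20.1% and 16.0% against 38.2% and 25.5%), Chst1 (30.9% and 15.6% against 11.4% and 13.96%) and Abcc3 (16.9% and 14.8% against 2.55% and 3.70%). For neurosphere H3K36me2 they were Mycn (5.80% and 4.91% against 22.1% and 14.7%, log2 fold change 1.82 ± 0.38, edgeR adjusted p = 0.978), a domain inside Thsd4, and 2 domains with no gene.

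The 8 domains with Wnt ligands, secreted signals that act through frizzled receptors, were read in the same fits. None passed the adjusted test, which could be run on 8 of the 8 for hippocampal H3K27me3, 7 for neurosphere H2AK119ub1, 5 for hippocampal H2AK119ub1 and 1 for neurosphere H3K36me2. Wnt6 and Wnt10a had neurosphere H2AK119ub1 over 95.4% and 95.0% for Ctrl, against 59.9% and 88.5% for cKO (log2 fold change -0.54 ± 0.24, SE, n = 2 a group, edgeR adjusted p = 1.000), and hippocampal H3K27me3 over 93.1% and 79.4% against 55.0% and 89.3%. Wnt8b, a gene of the hippocampal primordium and cortical hem, had hippocampal H3K27me3 over 70.8% and 42.8% in Ctrl and 19.8% and 73.7% in cKO, and neurosphere H3K27me3 over 98.3%, 91.8%, 91.4% and 97.9%. Wnt3a and Wnt9a had hippocampal H3K27me3 over 36.2% and 25.2% in Ctrl and 11.0% and 47.6% in cKO. The groups overlapped in hippocampal H3K27me3 of these 3 domains. In neurosphere H2AK119ub1 of Wnt6 and Wnt10a both cKO libraries lay below both Ctrl libraries, an order whose share over all domains was not counted. The Wnt6 and Wnt10a domain had the lowest of the 7 log2 fold changes of neurosphere H2AK119ub1 in Wnt ligand domains. Of these 7, 5 were above 0 and 2 below, with a median of 0.09, beside 44.8% of all domains tested below 0. All 8 log2 fold changes of hippocampal H3K27me3 were below 0, from -0.72 to -0.05, with a median of -0.32 beside 0.13 over all domains tested and 0.00 over all regions. In that contrast 38.9% of all domains tested and 50% of all regions were below 0, and so were the 4 Hox domains, the 4 Irx domains, the 8 with Pax and sine oculis homeobox genes and 24 of 32 with other homeobox genes, so the sign was not particular to Wnt ligands. The domain with Wnt1 and Wnt10b had neurosphere H3K36me2 over 2.29% and 4.59% in Ctrl and 61.5% and 13.8% in cKO, with a log2 fold change of 3.31 ± 0.73 (SE, n = 2 a group, edgeR adjusted p = 0.978). Fzd2, the only frizzled gene in a domain, had hippocampal H3K27me3 over 4.63% and 2.14% in Ctrl and 12.8% and 22.8% in cKO, with a log2 fold change of 1.90 ± 0.45 (SE, n = 2 a group, edgeR adjusted p = 0.946).

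The 4 Hox domains did not pass in any fit. Their log2 fold changes were -0.15 to -0.10 for neurosphere H2AK119ub1, -0.48 to -0.18 for hippocampal H2AK119ub1 and -0.30 to -0.21 for hippocampal H3K27me3 (edgeR adjusted p at least 0.981). Of all domains tested, 44.8%, 49.3% and 38.9% were below 0 in these contrasts, in the same order. Emx1, at the locus of the Cre driver gene, had neurosphere H2AK119ub1 over 92.0% and 59.6% in Ctrl and 42.2% and 72.9% in cKO, and the log2 fold change was -0.51 ± 0.33 (SE, n = 2 a group, edgeR adjusted p = 1.000). Its hippocampal H3K27me3 was at 0% in both Ctrl libraries and at 0% and 32.0% in cKO.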

How the data were processed

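ChIP-seq for H2AK119ub1, H3K27me3 and H3K36me2 was done on P0 hippocampus and neurospheres of Ctrl and cKO mice, 2 libraries for each source, mark and genotype. Per the study's methods and the submitters' processing notes, the authors trimmed reads with cutadapt, aligned them to mm10 with Bowtie2 2.4.5, used samtools to remove duplicate reads, and ran SICER for islands (version not given in the sources used here; window 200 bp, gap 600 bp, FDR 0.01, fragment 150 bp) in each library against input DNA. The deposited files give each island's position and its read count, which the authors did not normalise. Reads outside islands, and so the depth, are not in these files, and the 12 inputs were not analysed here. A stretch without an island has an unknown count, not 0.

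Islands were merged as described in the report, and coverage, islands and counts were taken for each region with Python 3.11.15 and numpy 2.4.6. Counts were shared out by overlapped bases and rounded. Genes are protein-coding genes of GENCODE vM21, by their annotated start. On chromosome 8 a read-through gene model spans the Foxc2 and Cbfa2t3 domains, so shares in gene bodies are not given there. Contrasts were fitted with edgeR 4.0.16 (TMM, quasi-likelihood test, Benjamini-Hochberg over 1205 to 4422 regions) and, as an alternative, DESeq2 1.42.0. Single values were tested with exact permutation tests. The neurosphere H3K27me3 contrast chose the domains and was not tested. Interval code and fits were tested on simulated data.

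Named domains were the 10 longest, those with Hox clusters, the 5 longest with a start in each class of covered share, the 3 longest without a start, the 3 at each side of 30 kb, and the smallest p of each contrast (at most 2 in each direction, since none passed). Sp100 was also named as the only domain without an island in either cKO neurosphere library. Members, classes and gene lists were chosen with earlier results of these data known.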

Additional observations from a re-analysis of the deposited data

Results flagged for a closer look

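The relative density of H3K36me2 counts in domains was higher in both cKO than in both Ctrl libraries of hippocampus (log2 difference 0.010) and lower in both cKO than in both Ctrl libraries of neurospheres (log2 difference -0.094), so the order of the groups was opposite between the sources. A test of the difference between sources, which permuted genotypes within each source over 36 splits, gave p = 0.0556 by exact permutation, the smallest these splits allow. It was picked from several such comparisons, of which the next smallest p was 0.222 (exact permutation, H2AK119ub1 relative density). The H3K36me2 result was flagged because its groups separated in opposite directions in the sources. That order by itself fixes this p, so the test adds nothing to it. With islands of at least 2 kb the hippocampal difference was 0.0054 and its groups overlapped (exact permutation p = 0.667), while that of neurospheres was -0.12 with no overlap. The neurosphere cKO libraries behind it differed in covered share of the domains, 35.1% and 2.73%, and the part of this spread in the result was not tested.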

How the results depend on the processing

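Leaving out 1 library kept the direction and the side of the threshold of 103 of 116 values, turned the direction of 10 and moved 3 counts by over 1.5 times. Of 133 values under the other alternatives, 122 were kept, 7 turned and 4 moved. The cause was not tested in any of these. The covered share, cKO minus Ctrl, ranged with 1 library left out from -17.5 to 29.8 points for hippocampal H2AK119ub1, from 5.55 to 18.3 for hippocampal H3K27me3, from 0.870 to 3.70 for hippocampal H3K36me2, from -15.2 to 21.5 for neurosphere H2AK119ub1 and from -9.66 to 22.7 for neurosphere H3K36me2. As a log2 ratio to the autosomal share it was -0.15, -0.20, -0.17 and -0.37 for hippocampal H2AK119ub1, hippocampal H3K27me3, neurosphere H2AK119ub1 and neurosphere H3K36me2. The log2 relative density ranged from -0.0504 to 0.0634 for hippocampal H2AK119ub1 and from -0.0822 to 0.101 for hippocampal H3K27me3, which was -0.0043 relative to islands that touch no domain. It ranged from 0.0073 to 0.0131 for hippocampal H3K36me2, from -0.144 to -0.058 for neurosphere H2AK119ub1 and from -0.121 to -0.067 for neurosphere H3K36me2. H3K36me2 in domains minus narrower regions ranged from -0.15 to 1.99 points, and was -0.0106 for domains of at least 50 kb and -0.17 against narrower regions of 10 to 30 kb.

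The count of domains past an FDR of 0.05 by edgeR ranged from 0 to 7 for hippocampal H2AK119ub1, from 0 to 1 for hippocampal H3K36me2 and from 0 to 209 for neurosphere H2AK119ub1. A group left with 1 library was assumed to vary like the other. The DESeq2 Wald test gave 4 for hippocampal H3K27me3 (0.139% of all regions called), 1 for hippocampal H3K36me2 (0.166%) and 5 for neurosphere H3K36me2 (1.47%). With the replicate number as a block (replicate block) 7 domains passed for hippocampal H3K27me3, 5 higher and 2 lower in cKO, beside 0.222% of all regions, and 0 in the other 4 contrasts. The deviations of same-numbered libraries correlated at 0.33, 0.19, -0.01, -0.23 and 0.31 in the 5 contrasts, and no label pairs them, so the libraries share only a number. With the numbers exchanged for neurosphere H2AK119ub1, chosen after seeing the data, 0 passed. Fitting only regions covered over at least 50% in all 4 libraries left no domain for hippocampal H3K36me2 and gave no value, and left 2 domains for hippocampal H2AK119ub1, of which 0 passed. Depth limits all contrasts in an unknown measure, since the files hold counts only inside islands.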
